A study of Arabidopsis thaliana with 6 samples.

Results

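The 129 genes described here flank *BRAVO* (AT5G17800) on chromosome 5 of *Arabidopsis thaliana*. They were chosen by identifier number, which follows position for most genes, as all identifiers from AT5G17000 to AT5G18600 in numerical order except AT5G17420, AT5G17430, AT5G17490, AT5G17800 and AT5G17810, with at least 10 estimated counts summed over the 6 libraries. Of the 176 identifiers in that range, 129 met the limit, among 22068 such genes in the whole series of 37336. Of the 47 that did not, 28 had no count in any library. The limit was applied to the sum over both genotypes, and AT5G17720 and *NAC088* reached it through *bravo-2* libraries alone. The range of identifiers leaves out 25 loci that lie in the same stretch but are numbered out of sequence, 7 of them with at least 10 counts.

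RNA was sequenced from GFP-positive cells that were sorted out of protoplasts of the primary root, at a seedling age of 5 days, in 3 *bravo-2* and 3 WT libraries. *bravo-2* is a knock-out line of *BRAVO* and WT is the Col-0 wild type. The study states that all its lines are in the Col-0 background, and both genotypes carried the pWOX5:GFP reporter. The gate therefore follows *WOX5* promoter activity, which marks the quiescent centre (QC). The study's list of genotyping primers includes a T-DNA border primer, but the position of the lesion in *bravo-2* is not stated in the sources used here. Nothing states that the libraries of a genotype came from separately grown seedlings, so p-values measure the spread between these libraries, which may be technical.

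*BRAVO* encodes a MYB transcription factor that keeps QC cells from dividing, and the QC is the small group of rarely dividing cells around which the root stem cells lie. A mutation can alter transcription of the genes beside it. DNA close to a mutation is also inherited with it when a line is crossed. The question here was whether genes near the mutated locus differed between *bravo-2* and WT.

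*BRAVO* itself lies on the plus strand of chromosome 5 at 5877113 to 5879331 (TAIR10) and has 3 annotated exons. Its level was 13.8, 10.3 and 11.7 CPM (estimated counts relative to library size, with edgeR's TMM scaling here and below) in the *bravo-2* libraries, against 13.4, 37.5 and 60.0 CPM in the WT libraries. The library labelled WT replicate 1 thus lay within the *bravo-2* range, and the groups overlapped. The log2 fold change of *bravo-2* over WT was -1.63 (SE 0.58, 95% interval -2.97 to -0.29), with an unadjusted p of 0.0227 and an adjusted p of 1.00 in edgeR's quasi-likelihood test over all genes.

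The libraries held 10990221 to 14425263 rounded estimated counts, and 3 counts correspond to 0.215 to 0.281 CPM. They differed in cell type markers. The summed level of 5 QC markers (*WOX5*, *AGL42*, *PLT1*, *PLT2* and *SCR*) was 3096, 974 and 464 CPM in *bravo-2*, against 584, 1657 and 1630 CPM in WT. The sum of 3 root hair markers (*RHD6*, *COBL9* and *EXPA7*) was 2.43, 444 and 1228 CPM in *bravo-2*, against 1605, 630 and 921 CPM in WT. All markers of both lists were counted in every library, but *RHD6* had 0.0716 CPM in *bravo-2* replicate 1, below the level of 3 counts. *bravo-2* replicate 1 thus had the highest QC sum and the lowest root hair sum of the 6 libraries. Sums over 3 markers each ran from 42.4 to 62.2 CPM in *bravo-2* and 72.3 to 137 CPM in WT for the root cap, from 4.65 to 138 CPM and 1.18 to 141 CPM for the endodermis, and from 0 to 11.4 CPM and 0.0841 to 7.23 CPM for phloem and xylem. Fewer cells of a type and less RNA per cell cannot be told apart in these sums.

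The flanking genes span 598 kb, from 5584708 to 6182761, with 63 members before *BRAVO* and 66 after it. The nearest is separated from *BRAVO* by 4.331 kb and the farthest by 299.023 kb. There are 62 genes on the plus strand and 67 on the minus strand, and 127 are annotated as protein coding and 2 as long non-coding RNA. Counts were found in all 6 libraries for 108 members. The mean reached 4 CPM for 97 members and lower for 32. Per length, the median member had 15.8 TPM (a level corrected for transcript length and library size, as the authors deposited it), against 12.4 TPM for all genes with at least 10 counts. Fractional counts, which arise where reads match more than 1 gene, occurred in 35 members. Another annotated gene overlaps 47 members, 43 of them on the opposite strand only. Since strand use in the counting is not given, reads of such pairs may not be separable. In the opposite-strand pair AT5G18140 and AT5G18150 both genes had fractional counts in all 6 libraries, so their reads were not fully separated.

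No flanking gene passed the test of a difference between *bravo-2* and WT. Of 129 members, 0 had an adjusted p under 0.05 in edgeR after Benjamini-Hochberg adjustment, where 0.0% of the 22068 genes tested did. At an unadjusted p under 0.05 there were again 0 members, against 1.35% of all genes (0.693% lower and 0.653% higher in *bravo-2*). The lowest member p was 0.0633, of *UGT78D2*. The fitted level was higher in *bravo-2* for 67 members and lower for 62. The median log2 fold change was 0.01 over the members and 0.03 over all genes, and the 2 members without a count in WT do not move it when set at their bound.

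The differences were small in most members. The median absolute log2 fold change was 0.27 over the members, against 0.33 over all genes tested and 0.33 over the 4925 genes of the rest of chromosome 5. A fitted difference of at least 2 fold was found in 16 members (12.4%), where 16.9% of all genes had one. Of the 16, 11 averaged under 4 CPM, among them AT5G17720 and *NAC088*, which had no count in WT. Among members averaging 4 CPM or more 5 had one (5.15%, against 5.37% of all genes of that level). At mean levels from 4 CPM upwards the members' median absolute value was 0.21, against 0.25 over the 15253 genes of that level. The members with lower means had a median of 0.70.

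**Figure D1:**
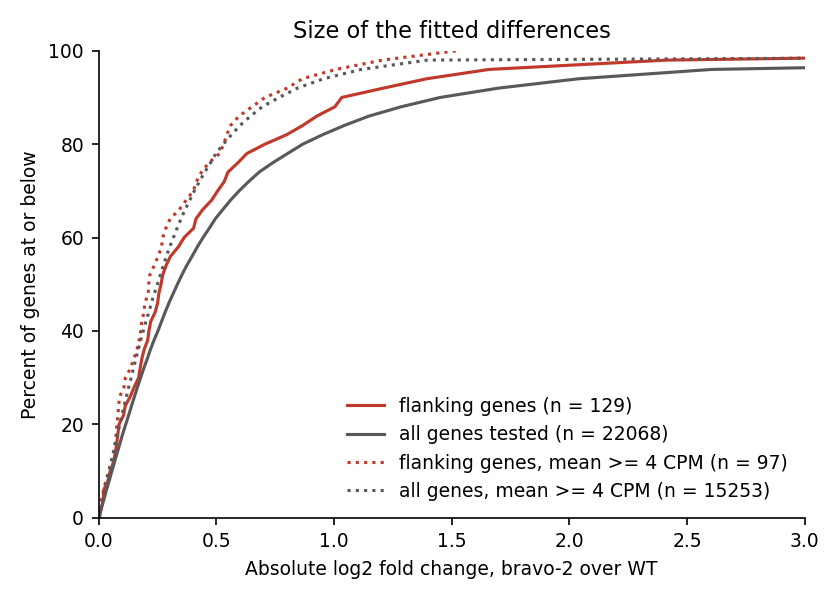
Cumulative share of genes (percent, vertical axis) by absolute log2 fold change of *bravo-2* over WT (horizontal axis, ending at 3), for the 129 flanking genes and all 22068 genes tested (solid lines), and for those averaging 4 CPM or more (dotted lines). The solid lines pass the middle of the genes at 0.27 for the flanking genes and 0.33 for all genes.

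The fitted differences were also set out by distance from *BRAVO*. The 18 members within 50 kb of *BRAVO* had a median log2 fold change of 0.13 and a median absolute value of 0.42. The 50 members between 50 and 150 kb had medians of 0.01 and 0.27, and the 61 members beyond 150 kb had -0.02 and 0.24. These medians were not tested, since genes are not replicates, and the nearest members include 2 with almost no counts. The medians on the 2 sides were -0.08 for the genes before *BRAVO* and 0.07 for those after it.

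**Figure D2:**
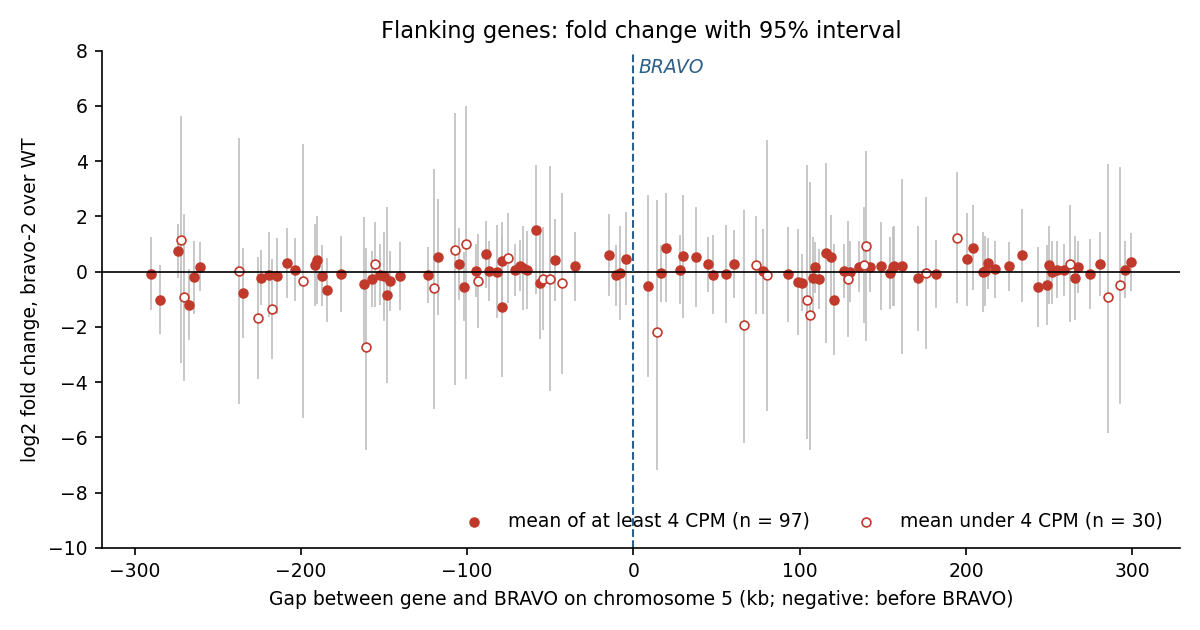
Log2 fold change of *bravo-2* over WT (vertical axis) against the gap between each gene and *BRAVO* in kb (horizontal axis, negative before *BRAVO*), for the 127 members with a standard error. Filled points average 4 CPM or more, open points a lower mean, and grey bars are 95% intervals from edgeR. Each of the 127 intervals includes 0.

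The precision sets how small a difference could have been seen. The standard error of the log2 fold change had a median of 0.65 and ranged between 0.38 and 2.17. The 95% interval lay within a 2 fold difference in either direction for 2 members and within 4 fold for 72 members. For the others the interval reached beyond 4 fold in at least 1 direction, except 2 members without a standard error, which had no interval. The range of the 3 *bravo-2* libraries exceeded the difference between the genotype means in 123 members, that of the WT libraries in 115, and both in 111. On the log2(CPM + 1) scale the median range was 1.21 within *bravo-2* and 0.90 within WT, against a median difference of 0.20 between the genotype means.

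On the side before *BRAVO*, the nearest member is *VAR3*, a zinc finger protein needed for chloroplast development (5869696 to 5872782, minus strand). It had 29.5, 15.3 and 4.12 CPM in *bravo-2*, against 6.32, 11.8 and 17.3 CPM in WT. Both the highest and the lowest library were *bravo-2* libraries, so the WT values lay inside the *bravo-2* range. Its log2 fold change was 0.47 (SE 0.73).

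The next gene, AT5G17780 of the alpha/beta-hydrolase superfamily, had 4.73, 3.98 and 20.2 CPM in *bravo-2* and 14.5, 8.07 and 7.09 CPM in WT. *CBR*, an NADH:cytochrome b5 reductase that passes electrons to enzymes of the endoplasmic reticulum, had 91.6, 145 and 190.0 CPM in *bravo-2*, against 183, 124 and 163 CPM in WT. The log2 fold changes were -0.04 (SE 0.74) and -0.14 (SE 0.48), and in both genes the WT libraries lay within the *bravo-2* range. AT5G17760, annotated as a P-loop nucleoside triphosphate hydrolase, had 25.7, 13.9 and 9.36 CPM in *bravo-2* and 3.94, 12.9 and 15.4 CPM in WT, with a log2 fold change of 0.60 (SE 0.65). It is the single counted member of a tandem cluster of 4 AAA-ATPase genes. AT5G17720, another alpha/beta-hydrolase, was seen in a single library, with 13 counts in *bravo-2* replicate 2 and 0 counts in the other libraries, which is no basis for a fold change.

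On the other side, the nearest member is AT5G17820, a peroxidase superfamily protein (5887871 to 5890260, minus strand, 3 exons). AT5G17810, numbered between it and *BRAVO*, is among the identifiers left out. Peroxidases of plants act on hydrogen peroxide, many of them in the cell wall. AT5G17820 had 11.2, 773 and 3899 CPM in *bravo-2*, against 3671, 1253 and 1831 CPM in WT. The *bravo-2* libraries held both the lowest and the highest value, and the highest was 349 times the lowest. The log2 fold change was -0.53 with a standard error of 1.44.

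Of the next genes, AT5G17830, a putative choline transporter of the plasma membrane, had 4 counts in *bravo-2* replicate 1 and 0 counts in the others, against 0, 14 and 4 counts in WT. AT5G17840, with a DnaJ cysteine-rich domain, varied little between libraries. It had 12.2, 9.50 and 11.2 CPM in *bravo-2*, against 9.36, 13.5 and 11.4 CPM in WT, with a log2 fold change of -0.06 and a 95% interval of -1.10 to 0.98. AT5G17850, a sodium/calcium exchanger, had 2.65, 10.3 and 41.5 CPM in *bravo-2* and 10.3, 8.83 and 10.7 CPM in WT. There the 3 WT libraries were close together while the *bravo-2* libraries spread to both sides of them. *PSRP6*, a protein of the plastid ribosome, had 22.3, 17.8 and 9.08 CPM in *bravo-2*, against 8.46, 17.5 and 20.6 CPM in WT.

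**Figure D3:**
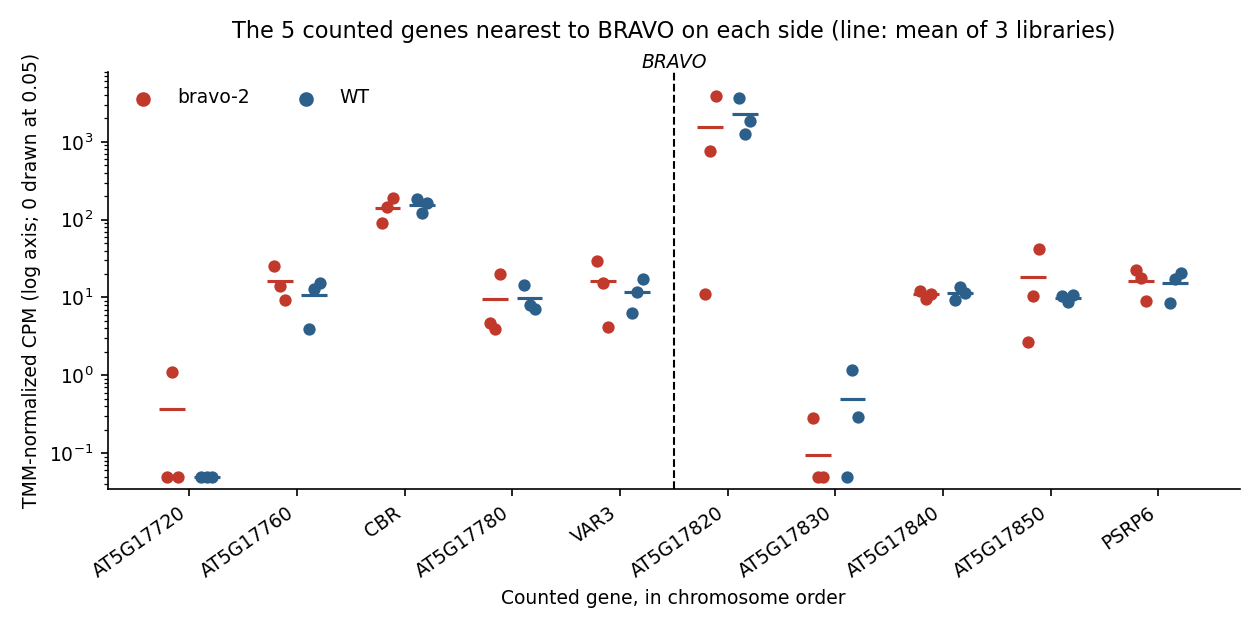
TMM-normalized CPM (log axis, values of 0 drawn at 0.05) of the 5 members nearest to *BRAVO* on each side, in chromosome order. Red is *bravo-2*, left of WT in blue. Identifiers left out by the choice, such as AT5G17810, are not drawn. Points are libraries and lines the mean of 3. The values of the genotypes overlap in every gene, and AT5G17820 spreads from 11.2 to 3899 CPM within *bravo-2*.

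The further genes among the 10 nearest members on each side gave the same picture of overlapping values. Before *BRAVO* these are the co-chaperone *EMB1241* (log2 fold change 0.19, SE 0.54), the efflux transporter AT5G17700 (-0.41, SE 1.43), *TFL2* (0.44, SE 0.65), the immune receptor AT5G17680 (-0.25, SE 1.78) and the hydrolase AT5G17670 (-0.25, SE 0.81). After it these are *CSA1* (0.55, SE 0.97), *DAR4* (0.55, SE 0.79), AT5G17900 (0.27, SE 0.43), AT5G17910 (-0.11, SE 0.62) and *ATMS1* (-0.08, SE 0.78).

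The values of the genotypes did not overlap in 3 of the 129 members (2.33%), against 4.77% of all genes tested. Of these members 1 was higher in *bravo-2* (2.17% of all genes) and 2 were lower (2.61% of all genes). *XPO1A*, an export receptor that carries proteins out of the nucleus, had 172, 156 and 121 CPM in *bravo-2*, against 77.9, 107 and 81.7 CPM in WT. All *bravo-2* libraries were above all WT libraries, and the log2 fold change was 0.75 (SE 0.43, 95% interval -0.23 to 1.74). *ENH1*, a rubredoxin family protein, had 0.859, 0.848 and 0.374 CPM in *bravo-2* and 2.05, 1.18 and 3.47 CPM in WT. *GSTF12*, a glutathione S-transferase required for anthocyanin accumulation in the vacuole, had 1.00, 1.27 and 1.498 CPM in *bravo-2*, against 2.30, 4.71 and 2.53 CPM in WT. Both were lower in all *bravo-2* libraries, at levels of few counts, with log2 fold changes of -1.67 (SE 0.96) and -1.33 (SE 0.79). *GSTF12* overlaps *PSY* on the opposite strand. The smallest p that an exact permutation test of 3 against 3 libraries allows is 0.10 (two-sided). These 3 genes reach it, as every gene without overlap must, so it adds nothing to the separation. Leaving out 1 library moved the count of members without overlap to between 4 and 21 (4 without WT replicate 3, where 9.18% of all genes had none, and 21 of 127 without *bravo-2* replicate 3, where 27.2% of all genes had none).

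The largest fitted differences among members averaging 4 CPM or more did not pass the test either. The highest was AT5G17650, a glycine/proline-rich protein, at 1.52 (SE 1.02). It had 1.79, 13.7 and 60.3 CPM in *bravo-2*, against 12.2, 7.49 and 6.73 CPM in WT, so a single *bravo-2* library lay below all WT libraries and another 2 above them. The receptor gene AT5G18370 (0.87), AT5G17850 (0.86), *XPO1A* (0.75) and AT5G18130 (0.67) followed.

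The lowest was AT5G17590, a putative membrane lipoprotein, at -1.27 (SE 1.11). *UGT78D2*, a glycosyltransferase that adds glucose to flavonoids, had 25.5, 31.7 and 16.9 CPM in *bravo-2*, against 27.6, 98.0 and 44.8 CPM in WT. Its *bravo-2* values were low apart from an overlap with WT replicate 1, and the log2 fold change was -1.20 (SE 0.56, 95% interval -2.48 to 0.08). It was -0.55 without WT replicate 2 and -1.53 without WT replicate 1. AT5G17010, a major facilitator superfamily transporter, had 51.0, 59.4 and 21.5 CPM in *bravo-2*, against 51.0, 117 and 97.4 CPM in WT, a log2 fold change of -1.01. AT5G18150 stood at -1.01 and AT5G17390 at -0.84.

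In 6 of the 77 members averaging 10 CPM or more (7.79%), *bravo-2* replicate 1 was more than 4 times below every other library, where 10.6% of the 12235 genes of that level were. They are *GAD*, AT5G17390, AT5G17460, AT5G17590, AT5G17820 and AT5G18150, a group picked after the values were seen and given as a description. AT5G17390, an adenine nucleotide alpha hydrolase-like protein, had 0.0716, 22.3 and 91.4 CPM in *bravo-2*, against 97.3, 44.8 and 62.0 CPM in WT. *GAD*, a glutamate decarboxylase that makes gamma-aminobutyric acid, had 53.2, 565 and 1531 CPM in *bravo-2*, against 1686, 567 and 649 CPM in WT. In both genes *bravo-2* replicate 1 was lowest and *bravo-2* replicate 3 stood among the WT values or near their top.

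Beside AT5G17820, the other 3 genes of that group were also lowest in *bravo-2* replicate 1. AT5G18150, a methyltransferase-related protein, had 3.08, 20.3 and 59.3 CPM in *bravo-2*, against 68.2, 33.9 and 63.9 CPM in WT. AT5G17590 had 0.215, 5.17 and 18.3 CPM in *bravo-2*, against 26.0, 12.3 and 19.0 CPM in WT. AT5G17460, annotated as a subunit of a glutamyl-tRNA amidotransferase, had 4.94, 44.8 and 133 CPM in *bravo-2*, against 47.8, 33.1 and 46.8 CPM in WT, so that *bravo-2* replicate 3 lay above every WT library. Within the mutant all 6 rose from replicate 1 to 2 to 3, as did the root hair sum (2.43, 444 and 1228 CPM). The endodermis sum (4.65, 9.07 and 138 CPM) and the phloem and xylem sum (0, 11.2 and 11.4 CPM) rose too. The QC sum fell (3096, 974 and 464 CPM), and the root cap sum did neither (58.3, 42.4 and 62.2 CPM). Being far lowest in replicate 1 was the rule that picked these genes. The part of other cell types in their values was not tested. AT5G17590 and AT5G18150 each overlap another gene on the opposite strand.

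**Figure D4:**
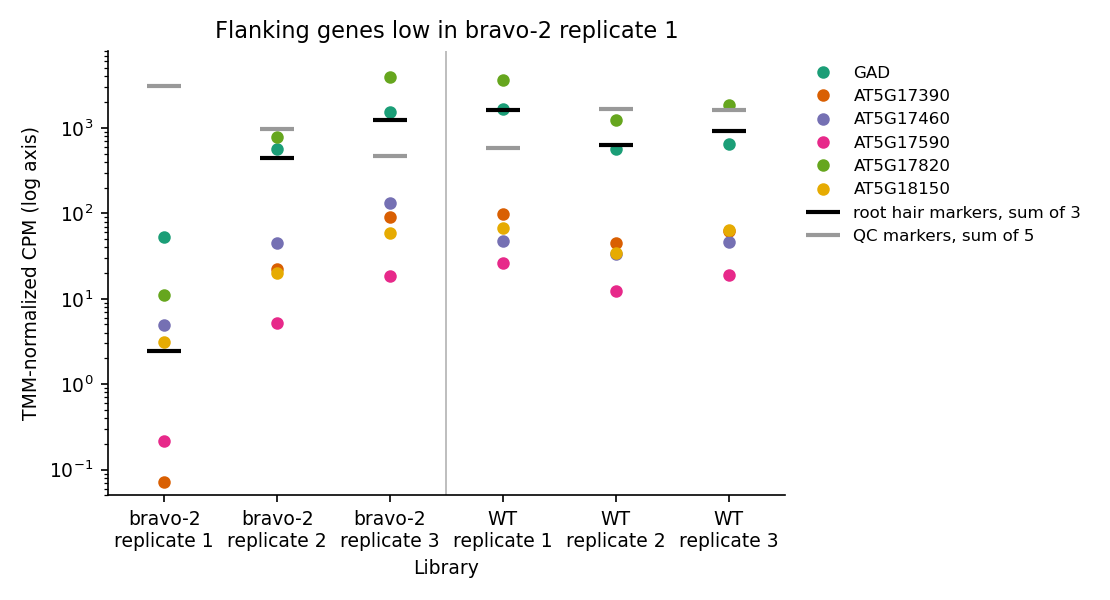
TMM-normalized CPM (log axis) in each library, *bravo-2* left of WT, of the 6 flanking genes in which *bravo-2* replicate 1 was more than 4 times below every other library (points), with the sum of 3 root hair markers (black bars) and of 5 QC markers (grey bars). The 6 genes and the root hair sum (2.43 CPM) were lowest in *bravo-2* replicate 1, where the QC sum was highest (3096 CPM).

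The 250 bases before the annotated start were read from RefSeq's TAIR10.1 sequence for 5 of these genes. Of these, 2 stretches are printed, that of the peroxidase gene AT5G17820 and that with the single motif match (AT5G17460). They were searched on both strands for the core words of the root hair element, GCACGA or GCACGT or TCACGA or TCACGT, bound by bHLH factors of root hair cells. A match, in capitals, was found in 1 of the 5, against 17.9% of 27431 promoters of this length and 26 of 127 member promoters (20.5%).
AT5G17820, chr5:5890261-5890510, minus strand: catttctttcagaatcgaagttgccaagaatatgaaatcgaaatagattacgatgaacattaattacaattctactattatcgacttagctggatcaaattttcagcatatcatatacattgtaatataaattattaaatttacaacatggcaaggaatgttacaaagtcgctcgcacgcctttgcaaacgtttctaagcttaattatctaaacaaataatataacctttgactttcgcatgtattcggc
AT5G17460, chr5:5759818-5760067, minus strand: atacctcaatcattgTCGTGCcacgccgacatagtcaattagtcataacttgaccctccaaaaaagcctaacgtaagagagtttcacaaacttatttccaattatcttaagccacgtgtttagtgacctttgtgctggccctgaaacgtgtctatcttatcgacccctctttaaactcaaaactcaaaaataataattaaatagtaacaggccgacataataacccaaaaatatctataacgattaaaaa
A match is a description of letters in this window, and no match says nothing of the factor.

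When the first component of the variation between libraries of a genotype was taken out before a limma test, 3 members passed an adjusted p of 0.05, all of them lower in *bravo-2*, where 2.08% of all genes passed and 1.85% passed as lower. They were AT5G17390 (log2 difference -2.31 on the log2(CPM + 1) scale, adjusted p 0.0439), AT5G17590 (-1.87, adjusted p 0.0373) and AT5G18150 (-1.64, adjusted p 0.0427), each among the 6 genes low in *bravo-2* replicate 1. At an unadjusted p under 0.05 there were 14 members, against 16.3% of all genes. The removal takes away spread between libraries without lowering the degrees of freedom, so these p-values are too small, and in edgeR and limma without it 0 members passed.

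*bravo-2* replicate 1 was the lowest of the 6 libraries in 37 of the 129 members (28.7%, against 35.2% of all genes) and the highest in 46 (35.7%, against 27.4%). Among the 97 members averaging 4 CPM or more it was lowest in 27 (27.8%, against 34.2% of all genes of that level). It was highest in 39 of them (40.2%, against 32%). Leaving it out gave 3 members an unadjusted p under 0.05 in edgeR, AT5G17650, AT5G17850 and *NAC088*, none with an adjusted p under 0.05, where 2.44% of all genes had an unadjusted p under 0.05. Leaving out *bravo-2* replicate 3 gave 2 (AT5G17590 and AT5G18150, against 5.11% of all genes) and leaving out WT replicate 1 gave 1 (*UGT78D2*, against 1.15%). *NAC088* had 4 and 7 counts in *bravo-2* replicates 2 and 3 and 0 counts elsewhere. It met the count limit through those libraries alone, so its p without *bravo-2* replicate 1 is no evidence of a difference.

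**Figure D5:**
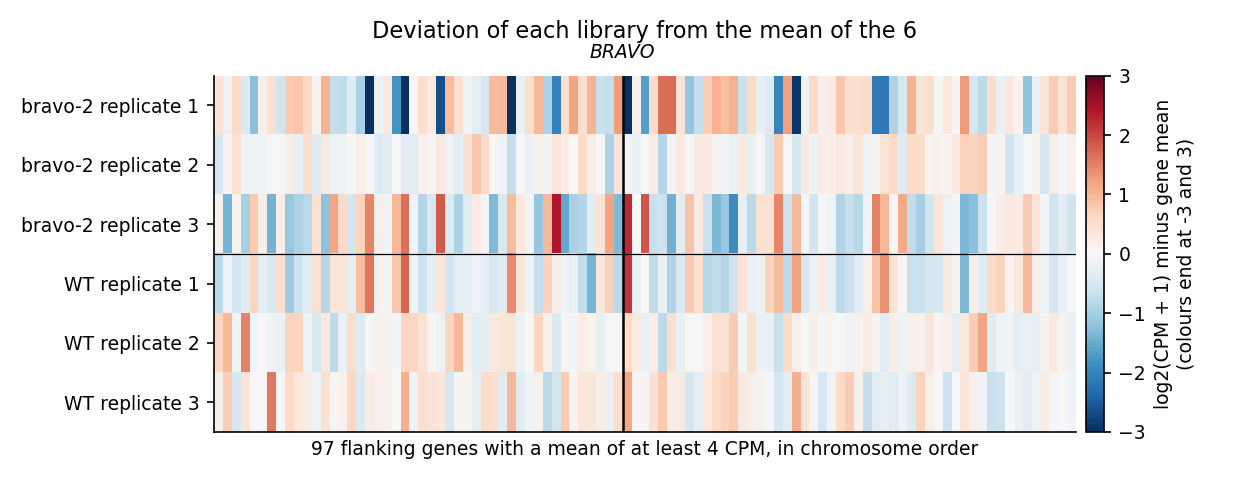
Deviation of each library from the mean of the 6, in log2(CPM + 1), for the 97 flanking genes averaging 4 CPM or more in chromosome order (columns), with *bravo-2* libraries above WT libraries (rows). Red is above and blue below the gene's mean, colours end at -3 and 3, and most of the strongest colours stand in *bravo-2* replicates 1 and 3 on both sides of *BRAVO*.

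Grouped by role, the counted members of the region gave no list in which a gene passed an unadjusted p of 0.05. Over all genes tested, 11581 were higher and 10487 lower in *bravo-2*, with the median log2 fold change of 0.03 given above. Transcription and chromatin genes were counted for 9 of 11 listed, with 4 higher and 5 lower in *bravo-2* and a median log2 fold change of -0.13. *TFL2*, which binds a repressive histone mark and helps to keep genes silent, had 23.9, 9.75 and 4.59 CPM in *bravo-2*, against 8.54, 9.25 and 10.5 CPM in WT. *RVE1*, a MYB-like factor tied to the circadian clock, had 7.88, 10.8 and 6.83 CPM in *bravo-2* and 8.38, 15.8 and 16.5 CPM in WT (log2 fold change -0.68, SE 0.51). *ANAC087*, which promotes programmed cell death in the root cap, was at 0 CPM in *bravo-2* replicate 1 and at 3.56 and 11.3 CPM in the other mutant libraries, against 7.06, 3.45 and 2.46 CPM in WT. *NAC088* had 4 and 7 counts in *bravo-2* replicates 2 and 3 and 0 counts elsewhere.

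The immune receptors of the NLR class, which detect pathogen effectors, were counted for 6 of 7 listed, with 5 higher and 1 lower in *bravo-2* and a median log2 fold change of 0.55. None of them passed an unadjusted p of 0.05. *CSA1* and *DAR4* lie beside each other in opposite directions and act as a receptor pair. *DAR4* had 92.8, 26.9 and 9.73 CPM in *bravo-2*, against 14.8, 40.6 and 33.3 CPM in WT, and *CSA1* had 15.8, 1.87 and 2.34 CPM in *bravo-2*, against 3.70, 2.02 and 7.96 CPM in WT. In both, *bravo-2* replicate 1 was the highest library and the other mutant libraries lay within or below the WT range. Without that library the log2 fold changes were negative, at -1.11 for *CSA1* and -0.69 for *DAR4*. AT5G18350 was low, with 0.644, 2.97 and 1.78 CPM in *bravo-2* and 1.15, 0.505 and 0.652 CPM in WT. AT5G18370 had 14.1, 10.09 and 3.37 CPM in *bravo-2*, against 3.61, 6.98 and 4.49 CPM in WT.

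Genes of primary and amino acid metabolism were counted for 9 of 9, with 4 higher and 5 lower in *bravo-2* and a median of -0.08. They hold the most abundant flanking gene, *ATMS1*, which makes methionine, at a mean of 3100 TPM. It had 3749, 7293 and 7216 CPM in *bravo-2*, against 8405, 6043 and 4912 CPM in WT, so the genotypes overlapped. *TRP1*, an enzyme of tryptophan synthesis, had 150.2, 74.5 and 28.1 CPM in *bravo-2*, against 42.9, 99.7 and 109 CPM in WT. *GDH1*, a glutamate dehydrogenase, had 21.1, 28.1 and 22.2 CPM in *bravo-2* and 16.3, 23.6 and 30.9 CPM in WT, a log2 fold change of 0.01 with a 95% interval of -0.97 to 1.00.

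Genes that orient microtubules and the cell plate were counted for 3 of 3, with 2 higher and 1 lower in *bravo-2*. *FASS*, a phosphatase subunit needed for the preprophase band that sets the division plane, had 199.96, 147 and 121 CPM in *bravo-2*, against 131, 160.5 and 152 CPM in WT. The augmin subunit *AUG7*, which takes part in microtubule nucleation, had 57.8, 34.6 and 37.6 CPM in *bravo-2* and 35.6, 40.3 and 36.3 CPM in WT. AT5G17410, of the family of gamma-tubulin complex proteins, had 31.1, 23.99 and 11.5 CPM in *bravo-2*, against 13.8, 30.1 and 31.1 CPM in WT. The log2 fold changes were 0.08 (SE 0.44), 0.21 (SE 0.40) and -0.17 (SE 0.54).

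Plastid proteins were counted for 7 of 7, with 3 higher and 4 lower and a median of -0.15. *PSY*, which starts carotenoid synthesis, had 34.4, 15.8 and 9.45 CPM in *bravo-2*, against 12.1, 30.5 and 23.7 CPM in WT. *RCP1*, a maltose exporter of the plastid, had 49.1, 29.0 and 17.9 CPM in *bravo-2* and 29.0, 72.7 and 38.1 CPM in WT. Both had overlapping genotypes.

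Genes of RNA handling and nuclear transport were counted for 6 of 6, with 4 higher and 2 lower and a median of 0.17. Besides *XPO1A*, AT5G18230, of the NOT family that acts in mRNA decay, had 91.6, 85.2 and 69.1 CPM in *bravo-2*, against 65.9, 80.9 and 70.8 CPM in WT. *NUFIP*, a factor in the assembly of small nucleolar RNA particles, had 71.5, 47.3 and 10.8 CPM in *bravo-2* and 11.1, 36.8 and 38.4 CPM in WT, a log2 fold change of 0.59 (SE 0.74).

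The tandem clusters of the region were mostly near zero in these cells. Of 6 SAUR genes, which respond to auxin, 1 reached the limit of 10 counts, and of 3 PUB genes, which encode ubiquitin ligases, 0 did. The 3 UGT78D genes were all counted, with 1 higher and 2 lower in *bravo-2*, and *UGT78D2* held most of their counts. The genes of the SAUR, PUB and UGT78D clusters and AT5G17760 had no fractional count in any library.

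Per length, the most abundant flanking genes after *ATMS1* were AT5G17820 (1945 TPM), the ribosomal protein family member AT5G18380 (765 TPM) and *GAD* (594 TPM). The next were the seven-transmembrane receptor candidate *Cand7* (219.9 TPM), the sugar transporter family member AT5G17630 (202 TPM), *CBR* (149 TPM), *FASS* (134 TPM), AT5G17380 (115 TPM) and the sphingolipid glycosyltransferase *PGSIP6* (103 TPM). In CPM, AT5G18380 had 449, 503 and 173 in *bravo-2*, against 216, 371 and 552 in WT, and *PGSIP6* had 114, 138 and 151 in *bravo-2*, against 207, 119 and 82.6 in WT. In neither did the genotypes separate, and the log2 fold changes of these 10 genes lay between -0.53 and 0.13.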

How the data were processed

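Reads were trimmed (cutadapt), aligned to TAIR10 (STAR) and assigned to Araport11 genes (RSEM) by the authors. Versions and strand setting are not given in the sources used here. The files deposited by the authors hold RSEM's expected counts, not normalized, and TPM per gene. For their own test the authors corrected a batch effect, having found sorting to be a confounded factor, and they reported BRAVO-regulated genes. The main edgeR fit here had no such correction and used another test, so its counts of genes passing are not comparable with theirs. RNA had been amplified with a low-input SMART-Seq kit, so floors of 3 counts cover counting error only, while the 95% intervals come from the spread between libraries. The 6 libraries (3 *bravo-2*, 3 WT) were grouped by their labels, and no *wox5-1* library was used here.

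Expected counts were rounded, genes with at least 10 counts in all were kept (22068), and the contrast of *bravo-2* over WT was fitted with TMM factors in edgeR (quasi-likelihood F-test), genotype as the only term and Benjamini-Hochberg adjustment. The text names the 10 nearest members on each side, those without overlap between genotypes, the 5 highest and 5 lowest fold changes above 4 CPM, the 10 highest in TPM, and examples of role lists. From those lists AT5G18410 and AT5G17630 were dropped because their annotation named another or no such role. The members and lists were chosen with earlier results of these data known. Names and positions came from RefSeq's TAIR10.1, which matched all 176 identifiers, and 1 promoter sequence is not reported here.

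Alternatives were upper quartile factors, DESeq2, limma on log2(CPM + 1), a filter of 4 CPM in 1 genotype, no filter, blocks for replicate number or for the first number of the title code, removal of the first residual component (standing in for the authors' batch correction, which was not run), and leaving out each library. Versions were R 4.3.3, edgeR 4.0.16, limma 3.58.1, DESeq2 1.42.0, matplotlib 3.10.9, scipy 1.17.1, numpy 2.4.6, pandas 2.3.3 and Python 3.11.15.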

Additional observations from a re-analysis of the deposited data

How the results depend on the processing

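Members with an adjusted p under 0.05 numbered 0 in edgeR, DESeq2 and limma, under every filter and block and without each library (DESeq2 called 0.077% of all genes). The exception was limma after removal of the first residual component, with 3 members (2.08% of all genes), and 14 at an unadjusted p under 0.05 (16.3%) where the other full-data fits had 0. Leaving out each library gave 0 to 3 members at an unadjusted p under 0.05 (0.836% to 5.11% of all genes), the 3 including *NAC088*. The median absolute log2 fold change was then 0.30 to 0.43 (0.34 to 0.61 over all genes), with 4 to 21 members without overlap between genotypes (8.28% to 27.2% of all genes). That last count was 5 with upper quartile factors (4.94% of all genes) and 1 of 97 members under the 4 CPM filter (3.67%).

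Same-numbered libraries did not vary together, since the correlations of their deviations across genes were -0.67, -0.04 and -0.38. Between differently numbered libraries of the 2 genotypes the correlations ran from -0.57 to 0.72. The lowest was *bravo-2* replicate 3 with WT replicate 2, which share the first number of the title code. The highest was *bravo-2* replicate 3 with WT replicate 1. Whether the replicate numbers pair libraries is not stated in the labels. With the replicate block 0 members had an unadjusted p under 0.05, and the log2 fold change turned to -0.25 for AT5G17460, -0.067 for AT5G17630, -0.030 for *DAR4*, -0.22 for *TRP1*, -0.61 for *ANAC087* and 0.077 for *PGSIP6*.

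Signs of other fitted values also turned, and the cause was not tested. Upper quartile factors gave 0.0010 for AT5G17780, 0.016 for AT5G17840, 0.054 for AT5G18380 and 0.036 for *PGSIP6*. DESeq2 gave 0.013 for AT5G17780 and -0.013 for *TRP1*. Limma with or without the component gave -0.37 for AT5G17460, -0.023 for AT5G17630, -0.18 for *TRP1*, -0.38 for *ANAC087* and 0.071 for *PGSIP6*. The title code block gave -0.62 for AT5G17460, -0.044 for AT5G17630, 0.037 for AT5G17670, 1.17 for AT5G17700, 0.059 for AT5G17840, -0.0089 for *TRP1*, -1.88 for AT5G18130 and -2.41 for *ANAC087*. Under that block *bravo-2* replicate 2 and WT replicate 3 each stand alone in their title code and add nothing to the genotype difference.

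With each library left out in turn, the log2 fold change changed sign at least once in 32 of the 51 genes named. The ranges were -0.81 to 0.18 for *PSY*, -1.64 to 0.24 for *GAD*, -0.94 to 0.28 for AT5G17380, -0.49 to 0.14 for AT5G17410, -0.77 to 1.07 for AT5G17460, -0.050 to 0.35 for *AUG7*, -0.50 to 0.52 for AT5G17630 and -0.18 to 2.07 for AT5G17650. They were -0.94 to 0.052 for AT5G17670, -1.90 to 0.93 for AT5G17680, -0.39 to 0.84 for *TFL2*, -0.99 to 0.24 for AT5G17700, -0.087 to 0.54 for *EMB1241*, -0.40 to 0.099 for *CBR*, -1.18 to 0.35 for AT5G17780 and -0.28 to 0.93 for *VAR3*. Further along they were -2.52 to 0.055 for AT5G17820, -0.18 to 0.076 for AT5G17840, -0.62 to 1.38 for AT5G17850, -0.22 to 0.37 for *PSRP6*, -1.11 to 1.23 for *CSA1*, -0.69 to 1.02 for *DAR4*, -0.71 to 0.31 for AT5G17910 and -0.25 to 0.17 for *ATMS1*. For the remaining genes they were -0.71 to 0.42 for *TRP1*, -0.18 to 1.68 for AT5G18130, -0.20 to 0.26 for *GDH1*, -1.28 to 0.78 for *ANAC087*, -0.30 to 0.36 for AT5G18380, -0.29 to 0.41 for *PGSIP6*, -0.75 to 0.33 for *Cand7* and -0.14 to 0.23 for *FASS*.

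With 3 libraries of a genotype and a median standard error of 0.65, a change under 2 fold could be bounded in 2 members.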
